A study of Homo sapiens with 6 samples.

Results

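The genes described here are the SREBP control genes SREBF1, SREBF2, SCAP, INSIG1, INSIG2, MYLIP, STARD4 and LPIN1, found by gene name in the table of LX-2 cells. All 8 were present once among 33900 genes. Samples treated with rhSema3C, recombinant human Sema3C, were compared with samples treated with PBS, to learn how Sema3C acts on hepatic stellate cells. LX-2 cells, a human line derived from hepatic stellate cells, were wild type by the labels and were grown in DMEM with serum and antibiotics. Treatment with 300 ng/ml rhSema3C or with PBS went on for 48 h, with n = 3 per group. A single line stands for the cell type in all 6 samples, and the labels call the replicates biological without saying whether they were separate cultures, so the p-values measure only the spread between these samples, which may be technical.

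SREBP proteins are transcription factors made as membrane proteins of the endoplasmic reticulum. SCAP, a sterol sensor, escorts them to the Golgi, where proteases release the active part, and INSIG proteins hold SCAP and SREBP back when sterols are plentiful. SREBF2 encodes SREBP-2, best known for genes of cholesterol synthesis and uptake, and SREBF1 encodes SREBP-1, best known for genes of fatty acid synthesis. Both factors bind sterol regulatory elements, usually beside sites for NF-Y and Sp1. Of the other genes, MYLIP encodes a ubiquitin ligase that marks lipoprotein receptors for degradation, STARD4 a carrier of sterols between membranes, and LPIN1 a phosphatidate phosphatase that also acts as a nuclear coregulator. MYLIP is thus the only one of the 8 that acts on lipoprotein uptake directly. SREBP activity depends on cleavage of the protein, which RNA sequencing did not measure.

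The promoters are shown because several of these genes are known targets of the factors that the group controls. RefSeq promoters (GRCh38.p14, from 250 bases before to 50 after a gene's start) were found for 8 of 8 genes, in 11 entries. Each sequence below gives the 250 bases before the start, on the gene's strand, with the sterol regulatory element (TCACNCCAC), the NF-Y box (CCAAT) and the E-box (CACGTG) in capitals where they occur on either strand. SREBF2 is shown as the one gene with an exact match to the element in this window, INSIG1 for its large difference, and STARD4 as the sterol carrier. Elements with other letters or outside the window were not searched for.
SREBF2 (chr22:41832855-41833104, + strand): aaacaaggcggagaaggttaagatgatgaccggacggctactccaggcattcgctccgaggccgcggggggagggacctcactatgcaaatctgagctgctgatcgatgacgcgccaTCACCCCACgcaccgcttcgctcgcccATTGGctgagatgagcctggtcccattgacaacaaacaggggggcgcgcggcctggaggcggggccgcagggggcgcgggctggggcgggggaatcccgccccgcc
INSIG1 (chr7:155297628-155297877, + strand): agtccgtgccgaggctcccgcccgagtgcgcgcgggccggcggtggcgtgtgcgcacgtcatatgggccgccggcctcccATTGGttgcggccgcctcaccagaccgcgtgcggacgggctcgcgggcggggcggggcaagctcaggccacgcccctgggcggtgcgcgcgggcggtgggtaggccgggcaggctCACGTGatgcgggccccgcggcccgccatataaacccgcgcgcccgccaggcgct
STARD4 (chr5:111512536-111512785, - strand): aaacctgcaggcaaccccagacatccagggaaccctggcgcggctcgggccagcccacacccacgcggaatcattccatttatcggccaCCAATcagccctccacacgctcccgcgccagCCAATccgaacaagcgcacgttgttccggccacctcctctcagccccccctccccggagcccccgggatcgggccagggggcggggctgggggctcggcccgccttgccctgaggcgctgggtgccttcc

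In the SREBF2 promoter the element TCACCCCAC began at position -133, counted back from the start, and an NF-Y box on the other strand (ATTGG) at position -106. An exact match to the element on either strand occurred in 1.13% of 35116 promoters in the table, and together with an NF-Y box in 0.347%. NF-Y boxes were present in 4 of the 11 entries (SREBF2, INSIG1, STARD4 and MYLIP), or 36.4%, beside 34.6% of all promoters. By gene this was 4 of 8, because LPIN1 had 3 entries and INSIG2 had 2, none with the box. STARD4 and MYLIP each held 2 NF-Y boxes. The E-box, at 7.26% of all promoters, was found in 2 entries, those of INSIG1 and SCAP. Sp1 boxes (GGGCGG, 45.0% of all promoters) were found in 10 entries, all but 1 of the 3 for LPIN1. These matches describe letters in the windows, and no binding was measured.

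The factor genes also host a pair of microRNAs. The mature sequences, shown because SREBF1 and SREBF2 carry them in their transcribed regions, share the seed, which is in capitals (bases 2 to 8).
hsa-miR-33a-5p, in SREBF2 (chr22:41900949-41900969, + strand): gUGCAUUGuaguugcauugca
hsa-miR-33b-5p, in SREBF1 (chr17:17813897-17813916, - strand): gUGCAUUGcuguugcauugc
MIR33B had between 0 and 1 counts in the 6 samples. The labels name an mRNA library kit, so mature miR-33 was not measured.

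Between 68267808 and 89245585 counts fell on genes in each sample. Levels are given as FPKM, the authors' values per kilobase of transcript and scaled to library size, which allow genes to be compared. Differences are log2 fold changes of rhSema3C against PBS, with their standard errors (SE), from the quasi-likelihood test of edgeR with TMM scaling. Benjamini-Hochberg adjustment ran over 14178 genes whose mean FPKM reached 0.5. FPKM was not scaled by TMM, so a ratio of FPKM need not equal the fold change given beside it. In these bulk samples fewer cells of a type and less RNA per cell cannot be told apart. Among stellate cell markers COL1A1, TIMP1 and SPARC were abundant, while COL1A2 reached no more than 0.144 FPKM and DES and LRAT were at or near 0. Of 10 stellate cell markers, 7 were tested and 6 fell, and the summed FPKM of the list was between 498 and 519 with PBS and between 384 and 402 with rhSema3C. Of 4 markers of macrophages and leukocytes, CD68 and CD14 were tested and both fell, their list summing to 94.4 to 103 FPKM with PBS and 66.8 to 72.6 with rhSema3C, while CD163 and PTPRC had no more than 12 counts. The endothelial list summed to 0.797 to 1.05 FPKM with PBS and 1.26 to 1.67 with rhSema3C, mostly KDR and VWF. The higher sum came from VWF, at 0.0902 to 0.120 FPKM with PBS and 0.542 to 0.760 with rhSema3C. VWF did not pass the filter and was not tested, while KDR had a log2 fold change of -0.10 (edgeR adjusted p = 0.63). The hepatocyte list summed to 2.62 to 3.14 FPKM with PBS and 3.52 to 4.14 with rhSema3C, nearly all of it SERPINA1, which rose (log2 fold change 0.37, edgeR adjusted p = 0.0066), while ALB and APOA1 were at or near 0. The bile duct list, mostly KRT7 (log2 fold change 0.02, edgeR adjusted p = 0.92), summed to 2.37 to 3.88 FPKM with PBS and 3.20 to 3.67 with rhSema3C. CDH5 of endothelial cells and EPCAM of bile duct cells were at or near 0. Mitochondrial genes took 4.75% to 5.42% of the counts with PBS and 3.73% to 3.93% with rhSema3C. The part of these differences in the results was not tested.

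All 8 genes passed the filter, and at an adjusted p of 0.05 rhSema3C raised 7 and lowered 1 of them. By the same rule 62.3% of the genes tested changed, 31.7% upward and 30.6% downward. With limma on FPKM rescaled to TPM the members called were 7 and 0. The higher genes were INSIG1, INSIG2, STARD4, LPIN1, SREBF1, MYLIP and SREBF2, and the lower gene was SCAP. The median log2 fold change of the 8 was 0.90, beside 0.02 for all genes tested. The 8 were chosen with earlier results of these data known, so their counts and median are a description. INSIG1, INSIG2 and STARD4 exceeded a fold change of 2, as did 3.31% of all genes tested in that direction. The groups did not overlap in CPM (counts scaled to library size and TMM) for any of the 8, with 7 higher and 1 lower. That was so for 67.8% of all genes tested, 34.6% upward and 33.3% downward. For each single gene the two-sided exact permutation p was 0.1, the smallest possible with this number of samples.

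**Figure D1:**
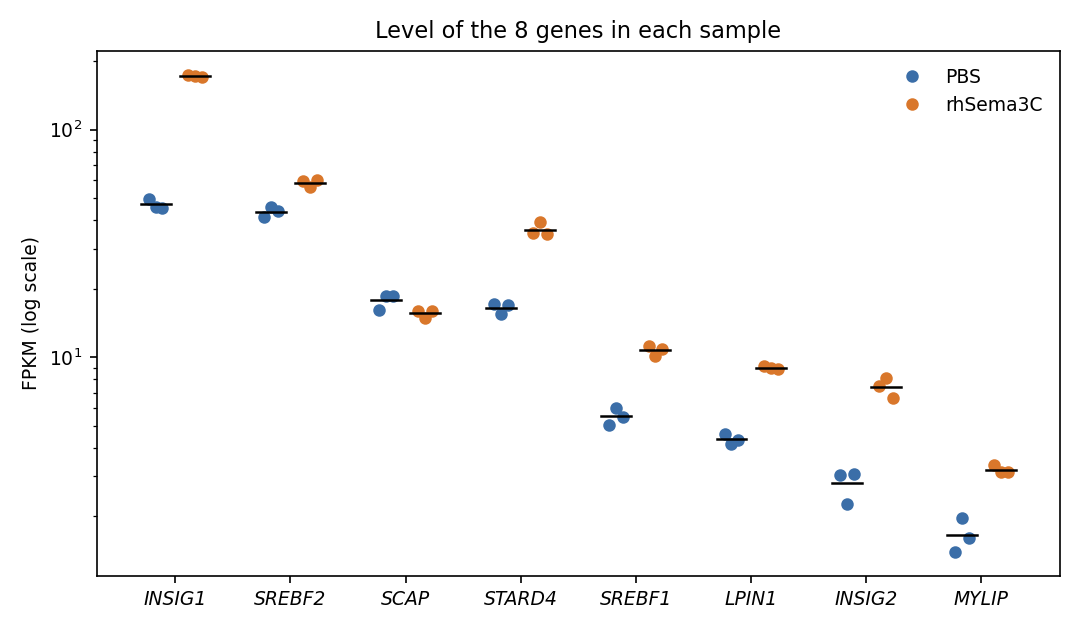
FPKM (log axis) of the 8 genes in each sample, ordered by their level with PBS, with 3 points per group and a black line at the mean. The rhSema3C samples sit above the PBS samples for 7 genes and below them for SCAP, where the groups are nearest to each other.

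The genes of the transcription factors came first in the pathway. SREBF2 (ENSG00000198911, chromosome 22, 41833079 to 41907307, GRCh38) had 41.3, 45.5 and 43.8 FPKM in PBS replicates 1, 2 and 3, and 59.5, 56.1 and 59.9 with rhSema3C. Every treated sample lay above every PBS sample, but the difference was the smallest of the 7 rises, with a log2 fold change of 0.32 (SE 0.05, edgeR adjusted p = 0.00015). SREBF1 (ENSG00000072310, chromosome 17, 17810399 to 17837011) had 5.02, 5.99 and 5.49 FPKM with PBS, and 11.2, 10.2 and 10.8 with rhSema3C. Its level was lower than that of SREBF2 in each sample, while its log2 fold change was larger, 0.86 (SE 0.07, edgeR adjusted p = 1.1e-06). The table does not separate the transcripts of SREBF1, so SREBP-1a and SREBP-1c were not told apart.

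Other genes lie across both factor genes. The end of SREBF1 overlaps RAI1 on the other strand over 1055 bases, and RAI1 fell, with a log2 fold change of -0.25. RAI1 had between 5814 and 7033 counts, from 82.7% to 186% of those of SREBF1. SREBF2-AS1, on the strand opposite SREBF2, had between 170 and 217 counts, at most 0.852% of those of SREBF2. Whether the counting used strand is not given in the sources used here, so reads in the shared bases cannot be assigned with certainty.

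SCAP, the escort, was the gene of the group that fell. SCAP (ENSG00000114650, chromosome 3, 47413681 to 47477126) had 16.2, 18.7 and 18.7 FPKM with PBS, and 16.0, 14.9 and 15.9 with rhSema3C. PBS replicate 1 lay close to the treated samples, and the other PBS replicates stood above them. The log2 fold change was -0.30 (SE 0.06, edgeR adjusted p = 0.0013) and the level fell by 18.5%. The call depended on the scaling. With limma on FPKM rescaled to TPM, SCAP had a log2 fold change of -0.06 (adjusted p = 0.46), in a fit where the median of all genes moved from 0.02 to 0.23, so SCAP still lay below the median gene there.

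The retention genes INSIG1 and INSIG2 had the largest rises of the group. INSIG1 (ENSG00000186480, chromosome 7, 155297776 to 155310233) is itself a classical target of SREBP, so that its protein feeds back on the pathway. Its level was 49.8, 45.8 and 45.4 FPKM with PBS, and 174, 172 and 169.9 with rhSema3C. The treated samples lay close together, with a coefficient of variation of 1.56% in CPM. The log2 fold change was 1.77 (SE 0.05, edgeR adjusted p = 6.2e-10), a 3.41-fold rise that ranked 75 by log2 fold change among the 14178 genes tested. No gene in the table overlaps INSIG1 or INSIG2.

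INSIG2 (ENSG00000125629, chromosome 2, 118088452 to 118110997) encodes the second retention protein, which is not known as a target of SREBP in the way INSIG1 is. It had 3.06, 2.27 and 3.08 FPKM with PBS, and 7.45, 8.10 and 6.62 with rhSema3C. PBS replicate 2 was the lowest sample, and the groups stood well apart. The log2 fold change was 1.29 (SE 0.12, edgeR adjusted p = 3.9e-06), which is 2.45-fold, and it ranked 209. Although both retention genes rose, INSIG2 stayed far below INSIG1 in level in every sample.

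STARD4 (ENSG00000164211, chromosome 5, 111496033 to 111512590), the sterol carrier, had 17.2, 15.5 and 16.9 FPKM with PBS, and 35.1, 39.2 and 34.8 with rhSema3C. Each treated sample was above each PBS sample, with replicate 2 the highest. The log2 fold change was 1.04 (SE 0.06, edgeR adjusted p = 7.0e-08), and it was just below 1, a fold change of 2, without rhSema3C replicate 2 (0.98) or without PBS replicate 2 (0.996). Its start overlaps STARD4-AS1 on the other strand over 2195 bases. That gene had between 2.12% and 4.88% of the counts of STARD4 and a log2 fold change of 0.25 (edgeR adjusted p = 0.30).

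LPIN1 (ENSG00000134324, chromosome 2, 11677595 to 11827409), which makes diacylglycerol from phosphatidate, had 4.60, 4.17 and 4.33 FPKM with PBS, and 9.17, 8.93 and 8.88 with rhSema3C. Both groups were tight and far apart. The log2 fold change was 0.94 (SE 0.05, edgeR adjusted p = 4.5e-08). MYLIP (ENSG00000007944, chromosome 6, 16129086 to 16148248), the ligase also called IDOL, had 1.40, 1.97 and 1.61 FPKM with PBS, and 3.37, 3.13 and 3.14 with rhSema3C. It was the gene with the fewest counts, from 345 to 890, and the most variable with PBS, at a coefficient of variation of 17.8% in CPM. The log2 fold change was 0.85 (SE 0.14, edgeR adjusted p = 0.00029).

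**Figure D2:**
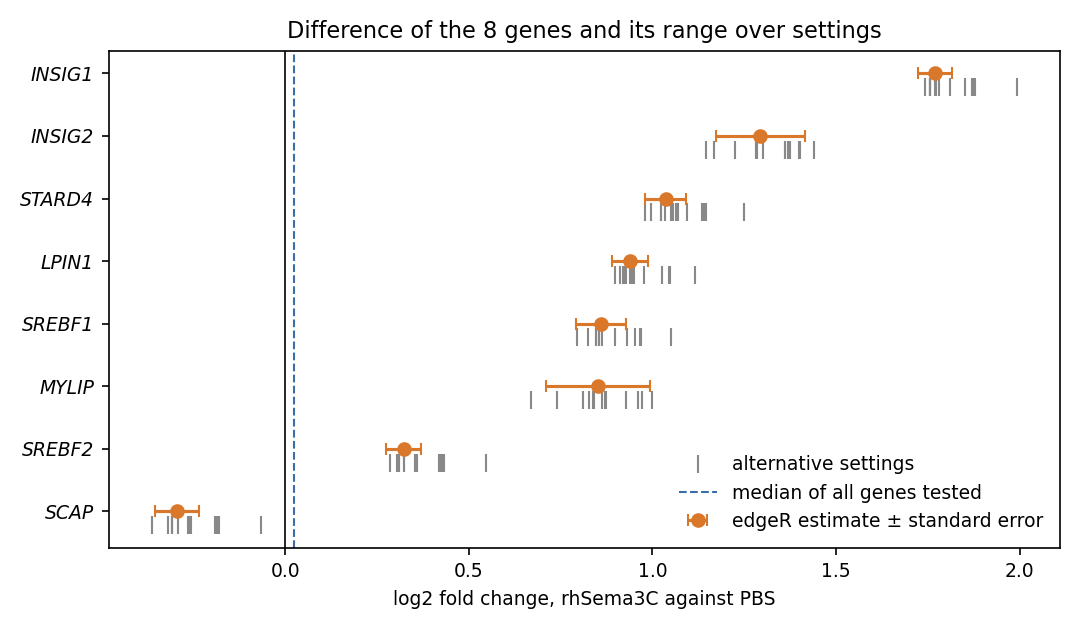
Log2 fold change of the 8 genes, rhSema3C against PBS, with the standard error (points and bars), and the value under each alternative setting (grey ticks), where the dashed line is the median of all genes tested. INSIG1 leads at 1.77 and SCAP at -0.30 is the gene below 0, with its nearest tick at -0.06.

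The order of the levels shifted between the groups. With PBS, INSIG1 (47.0 ± 2.43 FPKM, SD, n = 3) and SREBF2 (43.6 ± 2.09) were the most abundant, and their ranges overlapped. SCAP (17.8 ± 1.45) and STARD4 (16.5 ± 0.904) followed with overlapping ranges, and then SREBF1, LPIN1, INSIG2 and MYLIP, each apart from the next. With rhSema3C, the ranges of neighbouring genes did not overlap anywhere in the order. INSIG1 (172 ± 2.22 FPKM) stood far above SREBF2 (58.5 ± 2.10), and STARD4 (36.4 ± 2.45) had passed SCAP (15.6 ± 0.621). The last places in the order were the same in both groups.

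Ratios of paired genes within a sample do not depend on the scaling between samples. The ratio of INSIG1 to SCAP in FPKM, the retention gene over the escort it holds, was 3.08, 2.45 and 2.43 with PBS, and 10.9, 11.6 and 10.7 with rhSema3C. On the log2 ratio of counts this was a difference of 2.06 (SE 0.12). INSIG1 to SREBF2 was 1.08 ± 0.107 in FPKM with PBS, near parity, and 2.94 ± 0.115 with rhSema3C (SD, n = 3), a log2 difference of 1.45 (SE 0.09) in counts.

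Within the paralog pairs the shift was smaller. The ratio of INSIG1 to INSIG2 went from 17.1 ± 2.79 to 23.4 ± 2.22 (FPKM, SD, n = 3 per group), with a log2 difference of 0.47 (SE 0.15) in counts and samples of the 2 groups that did not overlap. SREBF1 to SREBF2 went from 0.126 ± 0.00516 to 0.183 ± 0.00395, with a log2 difference of 0.54 (SE 0.04). For these 4 pairs the exact permutation test gave p = 0.1, the smallest that 3 samples against 3 allow, so none could pass 0.05. STARD4 to MYLIP overlapped between the groups, at 12.3, 7.87 and 10.5 with PBS and 10.4, 12.5 and 11.1 with rhSema3C. Its log2 difference was 0.17 (SE 0.20, exact permutation p = 0.5), and its sign rested on PBS replicate 2, without which it was -0.0040.

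**Figure D3:**
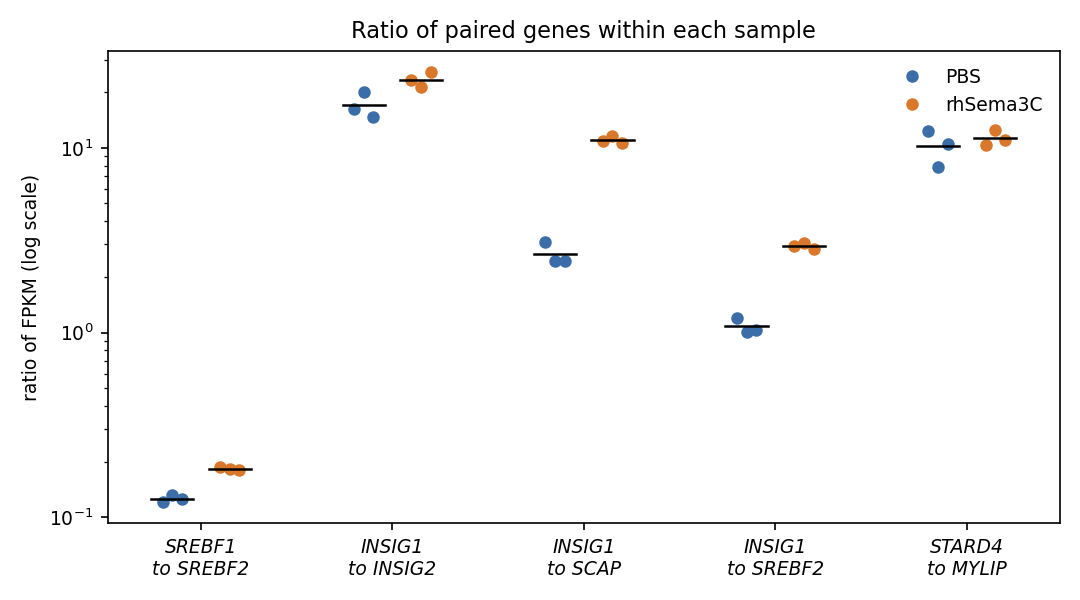
Ratio of FPKM (log axis) of 5 gene pairs within each sample, with 3 points per group and a black line at the mean. INSIG1 to SCAP moved most, from between 2.43 and 3.08 to between 10.7 and 11.6, and STARD4 to MYLIP is the pair whose groups overlap.

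The genes around the 8 were described in 7 lists by role, holding 85 genes, and 77 of these entered the test. By the rule used above 41 rose, 20 fell and 16 did not pass, and with limma on TPM 54 were higher and 14 lower. Of all genes tested, 31.7% were higher and 30.6% lower by that rule, and the counts of each list below stand beside those shares. The enzymes that are textbook targets of SREBP moved one way. All 11 genes of the SREBP-2 list were higher, with a median log2 fold change of 1.01, led by HMGCS1 (2.24), which makes HMG-CoA. All 8 genes of the SREBP-1 list were higher too, with a median of 0.93, led by ACSS2 (1.86), which makes acetyl-CoA from acetate. These 19 genes were also called higher in each alternative setting. The enzymes were known to rise in these data when the lists were written, so their counts are a description. The total of 41 higher genes over the 7 lists includes these 19, so it too is a description and no measure of an excess over all genes.

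The machinery that processes, retains or degrades SREBP was mixed, with 11 of 21 genes higher, 6 lower and a median log2 fold change of 0.20. RNF145, a ubiquitin ligase linked to SCAP, rose most (0.67, edgeR adjusted p = 1.23e-07). SPRING1, a cofactor of the SREBP pathway listed in the table as C12orf49, fell most (-0.78, edgeR adjusted p = 1.25e-07). The proteases that cut SREBP in the Golgi were named after their values were seen. MBTPS2 rose by 0.44 on the log2 scale, and MBTPS1 had a log2 fold change of -0.22, which turned positive with limma on TPM.

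In the lipoprotein uptake route, 5 of 11 genes were higher and 5 lower, with a median of 0.12. VLDLR, a receptor for very-low-density lipoprotein and a target of MYLIP, rose most, from 1.02 to 3.12 FPKM on average (log2 fold change 1.51, standard error 0.11). LRPAP1, a chaperone of this receptor family, fell most (-0.60). With library size alone or with limma on FPKM or TPM, 3 genes of the list were lower in place of 5. NPC1 and LIPA, which release cholesterol from endosomes and lysosomes and were named after their values were seen, rose by 0.82 and 0.92. NPC2 of the same list did not rise with them. Its log2 fold change was -0.12 (edgeR adjusted p = 0.028), which turned positive with limma on TPM.

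Of the sterol transfer proteins, 6 of 10 were tested, with 1 higher (OSBPL9, 0.55) and 1 lower. The lower one was STARD3, the START family relative of STARD4 that sits on late endosomes (log2 fold change -0.40, standard error 0.04). With library size alone 3 of these genes were higher, and with limma on TPM 4. STARD4 and STARD3 thus differed in direction in the main fit, though the difference between them was not tested. STARD5, STARD6 and STAR did not pass the filter on low values.

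Among lipins and genes of glycerolipid synthesis, 2 of 11 tested were higher and 4 lower, with a median of -0.01. LPIN2, a paralog of LPIN1, rose by 0.21, and LPIN3, the other paralog, had a log2 fold change of -0.03 (edgeR adjusted p = 0.81). AGPAT3, which makes phosphatidate, fell most (-0.59), and AGPAT4 rose most (0.25, edgeR adjusted p = 0.032). The count of higher genes was between 1 and 5 over the settings tried. The rise of LPIN1 at 0.94 was larger than that of any gene tested in this list.

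LXR receptors induce SREBF1 and MYLIP when oxysterols bind them, so the receptors, their RXR partners and other targets were listed. Of 9 genes tested, 3 were higher and 4 lower, with a median of -0.05. ABCA1, the cholesterol exporter, rose most, from 3.20 to 12.0 FPKM on average (log2 fold change 1.80, standard error 0.05), and RXRA fell most (-0.50). Without PBS replicate 1 or 3 or rhSema3C replicate 1 or 2, ABCA1 was the 1 gene of the list that stayed higher. NR1H3, which encodes LXR alpha, had 1.26 FPKM with PBS on average and a log2 fold change of -0.05 (edgeR adjusted p = 0.77). NR1H2, the other LXR receptor, was named after its values were seen. It was more abundant, at 26.9 FPKM with PBS and 23.4 with rhSema3C on average, and fell (log2 fold change -0.30, edgeR adjusted p = 0.00023).

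**Figure D4:**
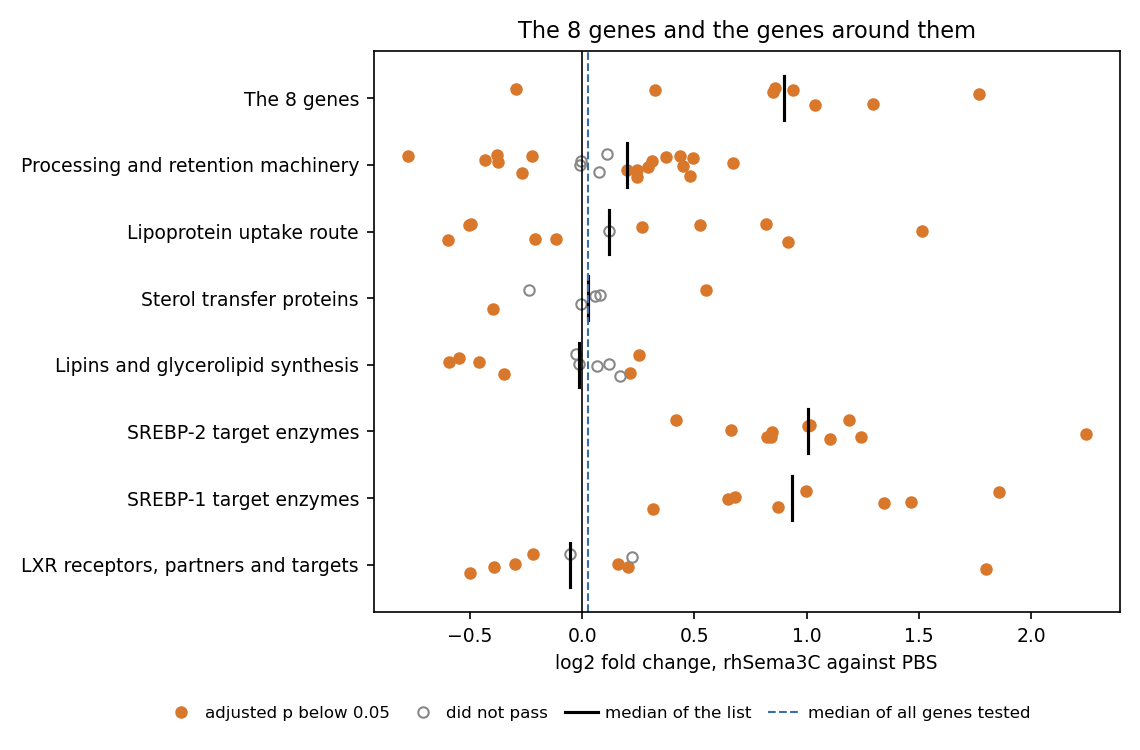
Log2 fold change, rhSema3C against PBS, of the 8 genes and of each tested gene in 7 lists, with filled points past an adjusted p of 0.05, a black line at each median and a dashed line at the median of all genes tested. Both lists of SREBP targets lie to the right of 0, with medians of 1.01 and 0.93, and the other lists spread on both sides.

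The genes with patterns most like these were found by the root mean square difference of centred log2 CPM over the 6 samples, which mostly reflects the size of the group difference. The 3 nearest to INSIG1 were IL6, MTHFD2 and ITPR1, at differences of 0.0544, 0.0579 and 0.0748. Nearest to SREBF2 was EIF4G3 (0.0194), to SCAP PACS1 (0.0224) and to SREBF1 SCNN1D (0.0327). ANKRA2 (0.0278) was nearest to STARD4, TTC17 (0.0169) to LPIN1, RHOU (0.0791) to INSIG2 and LMF1 (0.0610) to MYLIP. SREBF1 was second nearest to MYLIP (0.0736) and LIPA second nearest to LPIN1 (0.0236), and no other gene among the 3 nearest to each member was a member or in a list.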

How the data were processed

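RNA from LX-2 cells (3 samples with rhSema3C, 3 with PBS) was sequenced on an Illumina NovaSeq instrument. One deposited table gave unscaled read counts for each gene beside FPKM, in which the authors had divided by transcript length and library size. The methods name the Cufflinks package and cuffmerge. The aligner, counting tool and strand setting are not given in the sources used here. Of 32887 genes shared with GENCODE 29, 99.9% overlapped the position given there on GRCh38. The table also holds annotation, and no sample column was left unused.

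Genes whose mean FPKM reached 0.5 entered edgeR's quasi-likelihood test (TMM, Benjamini-Hochberg). Standard errors were derived from its F statistic. The tests were also run on simulated counts in which few genes changed, unlike these data, and no result here rests on that run. Ratios of paired genes used counts with 0.5 added and a two-sided exact permutation test. Alternatives were DESeq2, library size alone, other filters, limma on log2(FPKM + 1), log2(FPKM + 0.1) and log2(TPM + 1), fits with a replicate block, and fits leaving out 1 sample at a time. No molecular identifiers are described, so counting noise covers reads only. The members and lists were chosen with earlier results of these data known. Named were all members, each list's largest rise and fall and nearest relatives, and the 3 most similar genes per member. Promoters and miRNAs came from RefSeq (GRCh38.p14). Software was edgeR 4.0.16 and limma 3.58.1 in R 4.3.3, DESeq2 1.42.0, scipy 1.17.1 and matplotlib 3.10.9.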

Additional observations from a re-analysis of the deposited data

How the results depend on the processing

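The 7 rises among the SREBP control genes kept their direction and stayed past an adjusted p of 0.05 in every alternative that could be fitted. MYLIP was not tested at a mean FPKM of at least 5. The fall of SCAP held in 13 of 14 alternatives, and with limma on TPM the number of members called lower was 0 in place of 1. Without each sample in turn, members called numbered 7 higher and 1 lower throughout, and genes called in the lists 38 to 40 higher and 19 to 20 lower. The median log2 fold change of all genes tested moved from 0.02 to 0.13 with library size alone and to 0.23 with limma on TPM, and that of INSIG1 reached 1.99 in the latter. Leaving out each sample, the log2 difference of STARD4 to MYLIP ran from -0.0040 to 0.32, and the other 4 paired differences kept their sign. The groups share replicate numbers, and deviations of same-numbered samples correlated by 0.03, 0.09 and -0.02. The labels do not say whether these samples were paired. Deviations centred on 3 samples per group cannot decide it, so pairing stays unknown. With the replicate block, members called were again 7 and 1, and genes called in the lists 39 and 19. For the paired differences, such as 0.54 for SREBF1 to SREBF2, the block is no check. With 3 samples per group the mean of same-numbered differences always equals the difference of the group means. The depth, at 345 counts or more for each member, did not limit the calls, while low genes of the lists, such as STAR, entered only the fit with no filter on low values.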
